A study of Rattus norvegicus with 9 samples.

Results

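Thyroid hormone reaches the neonatal brain as thyroxine, is carried across the blood-brain barrier, and is converted in glia to triiodothyronine, the form that binds nuclear receptors. The 9 genes described here cover those steps in the cerebral cortex of rat pups: the thyroxine transporter gene Slco1c1, the deiodinase genes Dio2 and Dio3, the receptor genes Thra and Thrb, and Klf9, Nrgn, Camk4 and Itih3, which respond to the hormone in rodent brain. All probe sets whose platform annotation gives exactly 1 symbol, and that symbol one of the 9, were taken, which gave 17 of the 31099 probe sets on the Affymetrix rat expression array used.

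The samples were cortical tissue of Hsd:Sprague Dawley pups of the F2b generation, 1 pup per litter, on postnatal day 4, from 3 dietary groups: control (0 ppm), 750 ppm and 2500 ppm of 4-methylimidazole (4-MeI), a small nitrogen heterocycle formed when food browns. Exposure was continuous through breeding, so pups of the 2 dosed groups were exposed through their dams, and the series title places maternal seizures in the same setting without naming the dams affected. Each group had 3 arrays, labelled replicates 1 to 3, 1 pup each. Values are log2 intensities after robust multi-array averaging (RMA), on which a difference of 1 is a doubling of signal, and levels are compared only within a probe set. Of the 17 probe sets, 13 passed the filter that left out the dimmest 30% of the array (mean under 6.35). The other 4, 1 each for Thra, Thrb, Dio3 and Klf9, were too dim to test and are given by their values. The arrays had median log2 values between 7.67 and 7.71. On the first principal component control replicate 3 scored -25.19 against -8.64 and -9.47 in the other controls, and the score of 750 ppm replicate 3 was 14.98, with -5.97 and -11.25 for the other 750 ppm arrays. Several values below rest on 1 array and are given without it too.

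Thyroid hormone acts in developing cortex mainly through gene regulation: a receptor sits on DNA with a retinoid X receptor, represses in the absence of hormone and activates when hormone binds. Dio2 makes the active hormone, Dio3 destroys it, and Dio3 and Klf9 are themselves induced by it, so both are widely used as readouts of hormone in rodent brain. Nrgn encodes neurogranin, a calmodulin-binding protein of excitatory neurons, Camk4 a calcium and calmodulin dependent kinase, and Itih3 a heavy chain of the inter-alpha-trypsin inhibitor family that is joined to hyaluronan.

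The promoters of Nrgn, Camk4 and Itih3 are shown because these 3 genes stood furthest from control, for their spread, among the responsive genes at 2500 ppm. They are RefSeq windows of assembly GRCr8, from 250 bases before to 50 after an annotated transcription start, read 5′ to 3′ on the gene's strand. Capitals mark the motifs searched on both strands: the receptor half-site AGGTCA, the TATA box TATAAA and the GC box GGGCGG. The Nrgn window is chr8:45452368-45452667 (minus strand), that of Camk4 is chr18:24856902-24857201 (plus strand) and that of Itih3 is chr16:6123325-6123624 (minus strand). The 5′ limit of the Itih3 gene, at 6123609, falls inside its window, so the start used there is not the outermost of the gene.
Nrgn: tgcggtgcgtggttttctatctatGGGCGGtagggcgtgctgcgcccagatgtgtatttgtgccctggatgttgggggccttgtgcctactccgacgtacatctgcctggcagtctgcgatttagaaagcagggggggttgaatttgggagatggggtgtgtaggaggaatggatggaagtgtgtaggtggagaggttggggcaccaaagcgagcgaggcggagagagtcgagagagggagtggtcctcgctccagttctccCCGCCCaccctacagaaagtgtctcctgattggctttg
Camk4: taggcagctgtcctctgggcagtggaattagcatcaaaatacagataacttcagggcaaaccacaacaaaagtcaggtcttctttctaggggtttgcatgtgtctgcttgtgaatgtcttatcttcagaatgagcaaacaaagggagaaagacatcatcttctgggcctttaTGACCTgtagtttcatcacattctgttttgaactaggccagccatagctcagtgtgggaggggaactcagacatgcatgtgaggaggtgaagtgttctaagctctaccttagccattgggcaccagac
Itih3: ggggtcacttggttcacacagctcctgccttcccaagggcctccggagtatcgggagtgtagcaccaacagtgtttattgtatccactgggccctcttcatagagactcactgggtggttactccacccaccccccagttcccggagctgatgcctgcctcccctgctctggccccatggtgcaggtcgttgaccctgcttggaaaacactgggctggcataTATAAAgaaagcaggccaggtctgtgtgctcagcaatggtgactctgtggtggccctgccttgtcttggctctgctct
The Camk4 window holds 1 half-site, on the opposite strand, with its first base 78 bases before the start. The Itih3 window holds a TATA box that begins 28 bases before the start and no half-site, and the Nrgn window holds 2 GC boxes and neither of the other motifs. RefSeq windows were given for 8 of the 9 genes (9 windows, with 2 for Thra), and Slco1c1 had none. Among those 9 windows the half-site was found only in Camk4, against 16.2% of all 33469 rat windows. The direct repeat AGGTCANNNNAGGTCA was in none of the 9 and in 0.00598% of all windows. The TATA box was in the windows of Dio2, Dio3 and Itih3 (14.2% of all windows), and the GC box in those of Thrb, Dio3, Nrgn and the first of Thra (33.1% of all). A match describes the letters and not receptor binding, and response elements outside these windows were not searched.

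In limma, with Benjamini-Hochberg adjustment over all 21729 probe sets tested, 0 of the 13 member probe sets passed an adjusted p of 0.05 at 2500 ppm against control, where 0.686% of all probe sets did. At 750 ppm against control 0 of 13 passed (0.00920% of all), and at 2500 ppm against 750 ppm 0 of 13 passed (0.322% of all). At an unadjusted p under 0.05, 6 of 13 differed at 2500 ppm against control, where 16.0% of all probe sets did. That count was 4 of 13 at 750 ppm against control (10.1% of all) and 6 of 13 at 2500 ppm against 750 ppm (12.6% of all). The median size of the log2 difference from control at 2500 ppm was 0.363 over the 13 and 0.091 over all probe sets tested. With array weights, an alternative, 6 member probe sets passed at 2500 ppm, while the calls over all probe sets went up to 1495, against 149 without weights. These probe sets were chosen with earlier results of the same arrays known, so such counts describe them and give no independent support.

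Slco1c1, on chromosome 4 from 176197736 to 176244401, encodes the organic anion transporter OATP1C1, which takes thyroxine into brain endothelium and astrocytes of rodents. Its levels were 10.96, 10.94 and 10.03 on the control arrays, 11.11, 10.98 and 11.19 at 750 ppm and 11.15, 10.96 and 10.99 at 2500 ppm. The 750 ppm arrays all lay above the controls, the lowest 2500 ppm array equalled control replicate 1 at 2 decimals, and control replicate 3 stood far below the other arrays. The difference from control was 0.39 at 2500 ppm (SE 0.216, n = 3 against 3, limma adjusted p = 0.409) and 0.45 at 750 ppm (SE 0.216, limma adjusted p = 0.517). Without control replicate 3 these were 0.087 (adjusted p = 0.682) and 0.14 (adjusted p = 0.794), so the distance rested on that array. Of 12 endothelial markers 11 were analysed, and all 11 were above control in both dosed groups. Of 11606 genes, each read by its brightest tested probe set, 6659 were above control at 2500 ppm and 6610 at 750 ppm. The 11 had a median of 0.34 at 2500 ppm and 0.42 at 750 ppm (0.23 and 0.15 without control replicate 3). They ran from 0.068 (Flt1) to 0.84 (Emcn) at 2500 ppm and from 0.024 (Mfsd2a) to 0.87 (Emcn) at 750 ppm. Their mean, relative to all 9 arrays, was lowest in control replicate 3 at -0.49, against -0.06 and -0.14 in the other controls, 0.04 to 0.20 at 750 ppm and 0.01 to 0.22 at 2500 ppm. Control replicate 3 was also the lowest array for the meningeal (-1.19) and microglial (-0.20) marker means. The part of these means in the Slco1c1 values was not tested. In bulk tissue, fewer cells of a type and less RNA per cell cannot be told apart.

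The deiodinase genes showed no detectable dose pattern. Dio2, on chromosome 6 from 115396308 to 115410594, had levels of 6.82, 6.77 and 7.0 in controls, 6.61, 6.82 and 7.16 at 750 ppm and 6.93, 6.77 and 6.82 at 2500 ppm. The 3 groups overlapped, with means of 6.86 (SD 0.125), 6.86 (SD 0.279) and 6.84 (SD 0.0812), and the 95% interval of the 2500 ppm difference ran from -0.31 to 0.27. The 750 ppm arrays spread over more than the control range in both directions. Dio3, the hormone-inactivating enzyme, lies on the same chromosome from 135107072 to 135108933 and was dim. Its levels were 6.04, 5.92 and 6.19 in controls, 6.36, 6.21 and 6.07 at 750 ppm and 6.08, 5.91 and 6.02 at 2500 ppm. The 750 ppm mean of 6.21 was the highest of the 3 group means, and its arrays overlapped those of both other groups. The means of 10 astrocyte and radial glial markers, the cells in which Dio2 is mainly expressed, overlapped too (-0.12 to 0.02 in controls, -0.19 to 0.17 at 750 ppm, -0.09 to 0.08 at 2500 ppm).

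The receptor genes differed from each other in how steady they were. Thra, on chromosome 10 from 84198141 to 84225659, encodes the receptor that predominates in fetal and neonatal rodent brain, and alternative splicing also yields a form that does not bind the hormone. Probe set 1367726_at ranged over 0.15 across all 9 arrays, from 10.82 to 10.97, with group means of 10.91, 10.87 and 10.92 at 0, 750 and 2500 ppm. Its difference at 2500 ppm had a 95% interval from -0.12 to 0.15 on the log2 scale. Probe set 1370691_a_at averaged 10.90, 10.80 and 10.87, with 750 ppm replicate 1 lowest at 10.63 and every other array between 10.84 and 10.94. The dim probe set 1380518_s_at stayed between 4.19 and 4.36.

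Thrb, on chromosome 15 from 10115954 to 10465231, encodes the receptor that rises later in brain development, and its tested probe sets averaged below control at both concentrations. Probe set 1378457_at had levels of 9.97, 10.03 and 9.68 in controls, 9.32, 9.59 and 9.63 at 750 ppm and 9.26, 9.30 and 9.50 at 2500 ppm. All 6 dosed arrays lay under all 3 controls, and the dosed groups overlapped each other. The log2 difference from control was -0.54 at 2500 ppm (SE 0.118, limma adjusted p = 0.0806, 68.8% of the control signal) and -0.38 at 750 ppm (SE 0.118, limma adjusted p = 0.320). Probe set 1394456_at read 11.20, 11.21 and 10.98 in controls, 10.77, 10.78 and 10.83 at 750 ppm and 10.93, 10.66 and 11.02 at 2500 ppm. Here the 750 ppm arrays were tight and all below control, whereas 2500 ppm replicate 3 lay within the control range. Its differences were -0.26 at 2500 ppm (SE 0.0992, limma adjusted p = 0.239) and -0.34 at 750 ppm (SE 0.0992, limma adjusted p = 0.292), and the 2500 ppm value was -0.16 without 2500 ppm replicate 2. The third, 1370474_at, lay near the dim limit with means of 6.80, 6.43 and 6.44, and differed by -0.36 at 2500 ppm and -0.37 at 750 ppm (limma adjusted p = 0.397 and 0.543). The 2500 ppm value of 1370474_at was -0.60 without 2500 ppm replicate 3 and -0.20 without 2500 ppm replicate 2. All 3 tested probe sets thus pointed the same way at both concentrations, but each read the same pups, the control arrays were shared by both differences, and none passed. The dim 1387983_at stayed between 4.59 and 4.83. Between 2500 and 750 ppm the 3 tested probe sets differed by -0.16, 0.08 and 0.01, with 95% intervals that all included 0.

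**Figure D1:**
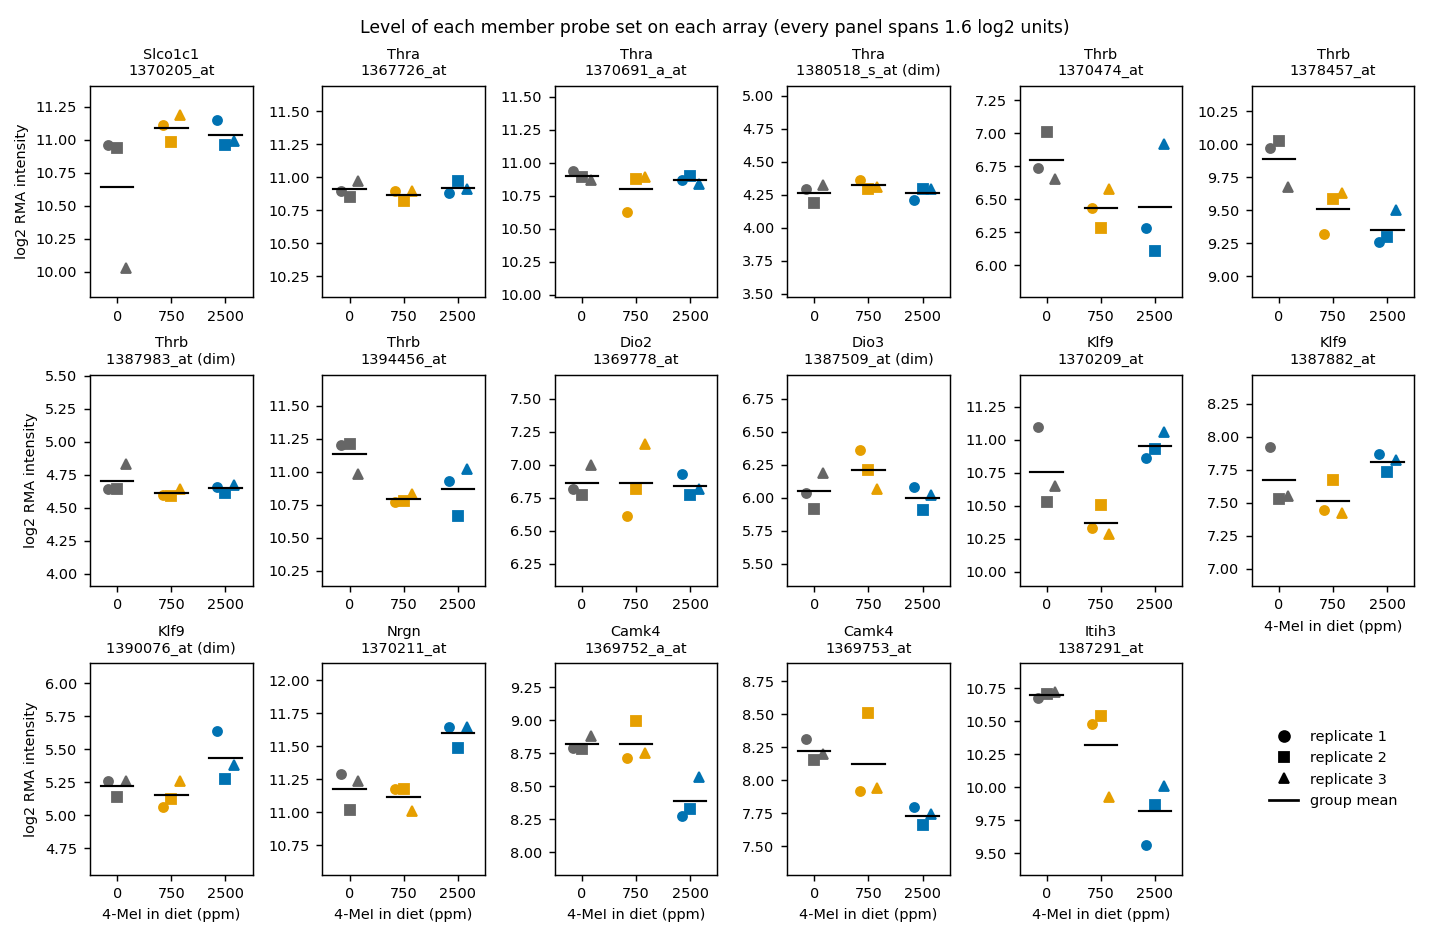
Level of each of the 17 member probe sets (log2 RMA intensity, vertical axis) against dietary 4-MeI (0, 750 and 2500 ppm), with a symbol per replicate and a bar at the group mean of 3 arrays. Thra 1367726_at varied by 0.15 over all arrays, Itih3 by 1.16, and Slco1c1 by 1.17 with control replicate 3 alone at 10.03.

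Klf9, on chromosome 1 from 230126646 to 230151641, encodes a zinc finger repressor induced directly by the thyroid hormone receptor, and also by glucocorticoids. Probe set 1370209_at read 11.10, 10.53 and 10.65 in controls, 10.33, 10.51 and 10.29 at 750 ppm and 10.86, 10.93 and 11.06 at 2500 ppm. The 750 ppm arrays lay below all others, and the 2500 ppm arrays lay within the control range, whose top was control replicate 1. The log2 difference was 0.58 between 2500 and 750 ppm (SE 0.136, limma adjusted p = 0.137), 0.19 between 2500 ppm and control (SE 0.136, limma adjusted p = 0.529) and -0.39 between 750 ppm and control (SE 0.136, limma adjusted p = 0.383). The levels therefore did not follow the order of the doses, and the slope on concentration was 0.12 per 1000 ppm (SE 0.0798, limma adjusted p = 0.513). Probe set 1387882_at had the same order of means, 7.67, 7.51 and 7.81, and differed by 0.30 between 2500 and 750 ppm (SE 0.112, limma adjusted p = 0.335). The dim 1390076_at averaged 5.22, 5.15 and 5.43, again lowest at 750 ppm and highest at 2500 ppm. Without control replicate 1, 1370209_at differed from control by 0.36 at 2500 ppm and -0.22 at 750 ppm, and with array weights the 2500 ppm value was -0.049.

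Nrgn, on chromosome 8 from 45444223 to 45452417, had levels of 11.29, 11.02 and 11.24 in controls, 11.18, 11.18 and 11.01 at 750 ppm and 11.65, 11.49 and 11.65 at 2500 ppm. All 2500 ppm arrays lay above all 6 others, while control and 750 ppm arrays covered the same range. The difference at 2500 ppm was 0.42 against control (SE 0.0900, 1.33-fold, limma adjusted p = 0.0786) and 0.48 against 750 ppm (SE 0.0900, 1.39-fold, limma adjusted p = 0.0701). At 750 ppm against control it was -0.064, with a 95% interval from -0.27 to 0.14. The mean of 7 markers of cortical excitatory neurons, which express Nrgn, was -0.01 to 0.02 in controls and -0.22 to 0.01 at 750 ppm. At 2500 ppm it was 0.04 to 0.17. The 7 did not move together: at 2500 ppm 4 were above control and 3 below, from 0.58 for Emx1 to -0.60 for Bcl11b. The part of these neurons in the Nrgn values was not tested.

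Camk4, on chromosome 18 from 24857152 to 25076054, was lower than control at 2500 ppm on both of its probe sets. Probe set 1369752_a_at read 8.79, 8.78 and 8.88 in controls, 8.71, 8.99 and 8.75 at 750 ppm and 8.27, 8.33 and 8.57 at 2500 ppm. The 2500 ppm arrays lay below all 6 others. The difference was -0.43 against control (SE 0.0983, 74.2% of the control signal, limma adjusted p = 0.0872) and -0.43 against 750 ppm (SE 0.0983, limma adjusted p = 0.129). Probe set 1369753_at read 8.31, 8.15 and 8.20 in controls, 7.92, 8.51 and 7.94 at 750 ppm and 7.80, 7.66 and 7.74 at 2500 ppm. It too was lowest on the 2500 ppm arrays, with -0.49 against control (SE 0.142, limma adjusted p = 0.147), and 750 ppm replicate 2 was the highest of all 9. At 750 ppm the probe sets differed from control by -0.0044 and -0.097.

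Itih3, on chromosome 16 from 6108378 to 6123609, had the largest difference of the 13 tested probe sets. Its levels were 10.68, 10.71 and 10.72 in controls, 10.48, 10.54 and 9.93 at 750 ppm and 9.56, 9.87 and 10.01 at 2500 ppm. The controls were nearly equal (SD 0.0247), all dosed arrays lay below them, and 750 ppm replicate 3 lay among the 2500 ppm arrays. The log2 difference from control was -0.89 at 2500 ppm (SE 0.163, 54.0% of the control signal, 95% interval -1.26 to -0.52, limma adjusted p = 0.0521) and -0.39 at 750 ppm (SE 0.163, limma adjusted p = 0.471). The 2500 ppm value just missed the threshold and passed in 8 of 19 alternatives, with an adjusted p between 0.00417 and 0.154. Without 750 ppm replicate 3 the 2500 ppm value passed (adjusted p = 0.0101), and the 750 ppm difference was then -0.19. The slope on concentration was -0.34 per 1000 ppm (SE 0.063, limma adjusted p = 0.0539).

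The 750 ppm array with low Itih3 was also low for genes of the striatum, which borders the cortex. Of 14 striatal markers 13 were analysed, with a median of -1.10 at 2500 ppm and -0.43 at 750 ppm against control, the second of which was -0.02 without 750 ppm replicate 3. At 2500 ppm 1 was above control and 12 below, and 6659 of all 11606 genes were above. The 13 ran from -2.37 (Rxrg) to 0.042 (Rasd2), with Rgs9 (-0.032) and Gpr6 (-0.018) close to control. At 750 ppm 3 were above and 10 below, and 6610 of all genes were above. The mean of the 13 relative to all arrays was 0.65, 0.25 and 0.42 in controls, 0.49, 0.40 and -0.81 at 750 ppm and -0.86, -0.06 and -0.48 at 2500 ppm. The arrays lowest for these markers, 2500 ppm replicate 1 and 750 ppm replicate 3, were the lowest and the third lowest for Itih3. Camk4 1369752_a_at was also lowest in 2500 ppm replicate 1, but at 8.75 in 750 ppm replicate 3 it was near the controls. The 2500 ppm replicate 2 was highest of its group for striatal markers, but at -0.06 its mean also lay below all controls. This array had 9.87 for Itih3 and 8.33 for Camk4 1369752_a_at, both below all controls. The part of tissue content in these 2 genes was not tested.

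**Figure D2:**
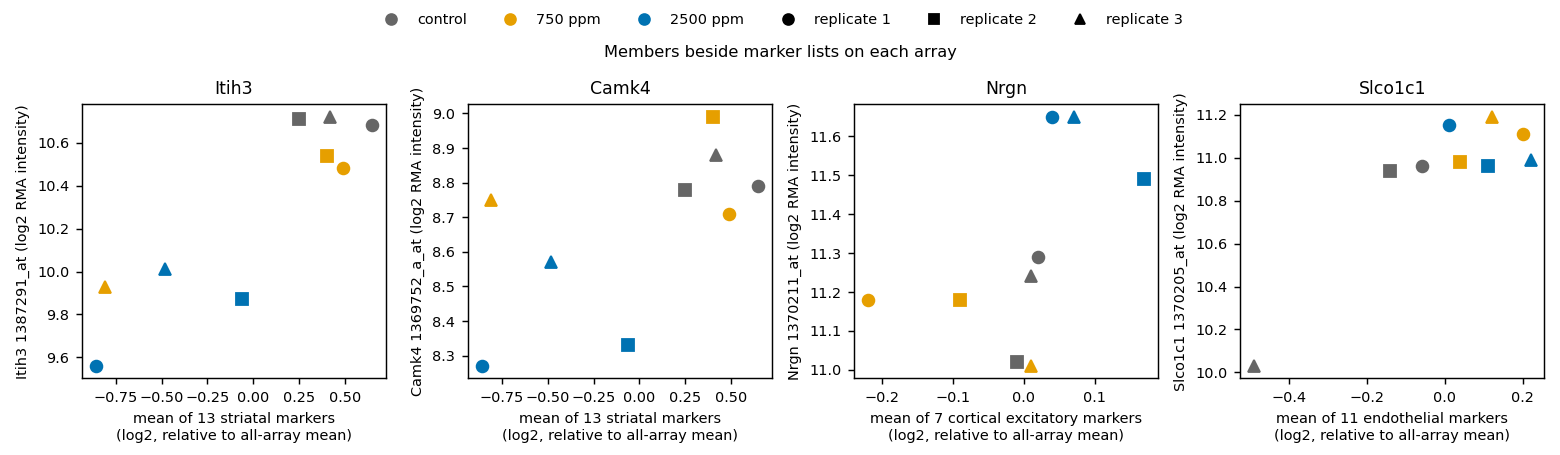
Level of Itih3, Camk4, Nrgn and Slco1c1 (log2 RMA intensity, vertical axes) on each of the 9 arrays against the mean of a marker list on the same array (log2, relative to the mean of all arrays), with colour for the group and symbol for the replicate. Slco1c1 at 10.03 coincides with the lowest endothelial mean of -0.49 in control replicate 3, and Itih3 at 9.93 with a striatal mean of -0.81 in 750 ppm replicate 3. Control replicate 3 was also lowest for the meningeal markers (-1.19), which are not drawn.

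**Figure D3:**
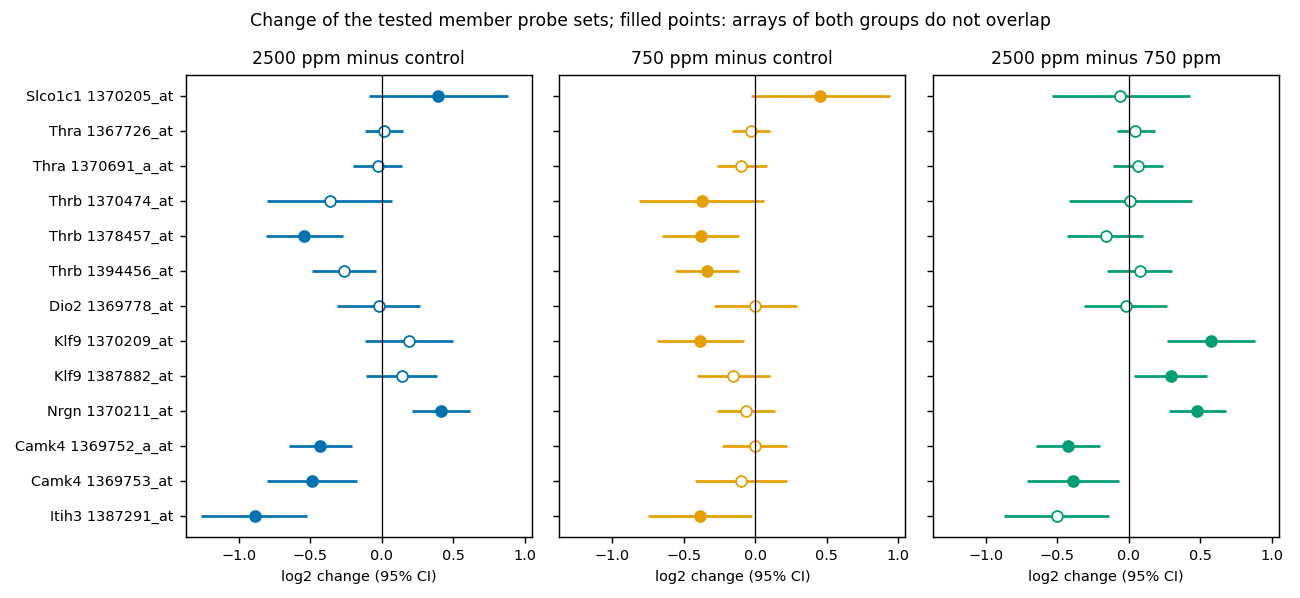
Log2 change of the 13 tested probe sets in 3 comparisons, with 95% intervals from limma and filled points where the arrays of both groups do not overlap. Itih3 lies furthest from 0 at 2500 ppm (-0.89), Thrb lies below 0 at both concentrations, and the Klf9 points lie above 0 only where 2500 ppm is on top.

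Counted by arrays, 6 of 13 probe sets did not overlap between 2500 ppm and control, where 23.3% of all probe sets tested did not. Of these 2 were higher (Slco1c1 and Nrgn; 9.87% of all) and 4 lower (Thrb 1378457_at, both of Camk4 and Itih3; 13.4% of all). At 750 ppm 6 of 13 did not overlap with control (14.2% of all): Slco1c1 was higher (7.61% of all), and the 3 tested Thrb probe sets, Klf9 1370209_at and Itih3 were lower (6.58% of all). Between 2500 and 750 ppm 5 of 13 did not overlap (17.4% of all), with both tested Klf9 probe sets and Nrgn higher (7.88% of all) and both Camk4 probe sets lower (9.52% of all). Slco1c1, Thrb 1378457_at and Itih3 did not overlap with control at either concentration, and both comparisons share the control arrays. At 2500 ppm Slco1c1 was apart from control only beyond 2 decimals, with 10.96 in both 2500 ppm replicate 2 and control replicate 1. Nrgn and both Camk4 probe sets did not overlap with either other group at 2500 ppm and overlapped with control at 750 ppm.

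Profiles most like those of 4 members were sought among 11598 other genes, by the root mean square difference of log2 levels over the 9 arrays after centring each gene. For Nrgn these were Pdzrn3 (0.0727), Sgk1 (0.0849) and Pcdh9 (0.0913), against a median of 0.253 over all genes. Pdzrn3 read 11.27 to 11.40 in controls, 11.20 to 11.41 at 750 ppm and 11.79 to 11.91 at 2500 ppm. These genes were picked for likeness, so a pattern shared with a member follows from the choice and is no separate result. A gene that does not vary lies at the member's own SD, which was 0.232 for Nrgn, 0.228 for Camk4, 0.412 for Itih3 and 0.288 for Klf9. For Camk4 1369752_a_at they were Mtf2 (0.0732), Sorcs3 (0.0852) and Zfp189 (0.10), with a median of 0.254. For Itih3 they were Rgs2 (0.156), Syt6 (0.157) and Rasgrp1 (0.161), with a median of 0.428. Rgs2 had 11.10 in 750 ppm replicate 3 and 11.77 and 11.83 in the other 750 ppm arrays, the same array standing low as for Itih3. For Klf9 1370209_at they were Brinp1 (0.143), Ccn2 and Dmgdh (0.152 each), with a median of 0.308, and Brinp1 was again lowest at 750 ppm (10.70 to 10.88).

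Other genes of thyroid hormone biology were read from lists, with the brightest tested probe set standing for a gene. Over all 11606 genes so represented, 39 rose and 32 fell at 2500 ppm against control, and 0 rose and 1 fell at 750 ppm. Among 7 measured carrier and transporter genes, 1 rose and 0 fell at 2500 ppm against control, and 0 passed at 750 ppm. The gene was Ttr, which encodes the thyroxine carrier transthyretin of the choroid plexus, with levels of 7.70, 7.34 and 8.17 in controls, 9.29, 10.01 and 7.91 at 750 ppm and 14.19, 13.97 and 12.06 at 2500 ppm. The 2500 ppm arrays stood far above the rest, by 5.67 over control (SE 0.623, limma adjusted p = 0.0135) and by 4.33 over 750 ppm (SE 0.623, limma adjusted p = 0.0300). The call against control was lost without control replicate 2 (5.47, adjusted p = 0.0588) or 2500 ppm replicate 2 (5.39, adjusted p = 0.0648), and passed in 17 of 19 alternatives. Against 750 ppm it passed in 13 of 19, and was lost without control replicate 1 or 2, 750 ppm replicate 1 or 2500 ppm replicate 1 or 2, and when only the groups compared were fitted, with an adjusted p of up to 0.146. The mean of 7 choroid plexus and ependymal markers was -0.73 to -0.58 in controls and -0.49 to -0.29 at 750 ppm. At 2500 ppm it was 1.52, 1.30 and 0.27. Ttr is 1 of these 7, so the mean carries the Ttr values themselves. At 750 ppm 2 of the 7 were above control and 5 below (median -0.03), and 6610 of all 11606 genes were above. At 2500 ppm 6 were above and 1 below (median 0.47), and 6659 of all genes were above. The part of choroid plexus content in the Ttr values was not tested. Slco1a4, an endothelial organic anion transporter, was 0.49 above control at 2500 ppm (limma adjusted p = 0.0944) and 0.76 above at 750 ppm (limma adjusted p = 0.201). The list median was 0.18 at 2500 ppm, against 0.02 over all genes. Crym, which encodes a cytosolic hormone-binding protein, was at -0.32 (limma adjusted p = 0.290).

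Among 5 measured genes of hormone metabolism and selenoprotein synthesis, Sult1a1 rose at 2500 ppm and 0 fell. Sult1a1 encodes a sulfotransferase of phenols, and it read 7.22, 7.03 and 6.43 in controls, 8.44, 8.30 and 8.20 at 750 ppm and 7.96, 8.33 and 8.03 at 2500 ppm. Both dosed groups were above all controls, by 1.22 at 2500 ppm (SE 0.186, limma adjusted p = 0.0295) and 1.42 at 750 ppm (SE 0.186, limma adjusted p = 0.145). The call at 2500 ppm passed in 15 of 19 alternatives and was lost without control replicate 2 or any 1 of the 2500 ppm arrays, where the difference was 1.11 to 1.29 and the adjusted p 0.0777 to 0.108. Meningeal markers were also higher in both dosed groups, with means of -1.19 to -0.20 in controls, 0.32 to 0.60 at 750 ppm and 0.00 to 0.45 at 2500 ppm, and their part was not tested. Dio1 was dim on all its probe sets, and Eefsec, a selenocysteine elongation factor, was at 0.064.

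Of 14 measured receptor partners, corepressors and coactivators, 0 passed in any of the 3 comparisons in limma, with 2 (14.3%) at an unadjusted p under 0.05 at 2500 ppm against control, where 14.8% of all 11606 genes were. The retinoid X receptor gene Rxrg read 10.60, 9.89 and 10.54 in controls, 9.71, 9.78 and 7.05 at 750 ppm and 6.66, 8.83 and 8.42 at 2500 ppm, a difference of -2.37 at 2500 ppm (SE 0.751, limma adjusted p = 0.173). Rxrg is 1 of the 13 striatal markers, so their mean carries the Rxrg values themselves. The 2 arrays lowest for Rxrg were also lowest for that mean. Rxra was 0.20 above control (SE 0.0807, limma adjusted p = 0.260). The list median was 0.03.

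Of 14 measured genes listed as raised by thyroid hormone in rodent brain, 0 passed in limma at either concentration against control, and 4 (28.6%) had an unadjusted p under 0.05 at 2500 ppm (14.8% of all genes), of which 3 were higher (21.4%, against 8.56% of all genes). Aldh1a1, a retinaldehyde dehydrogenase, was 0.82 above control (SE 0.229, limma adjusted p = 0.136), and Enpp2, the autotaxin gene that the choroid plexus also expresses, 0.82 above (SE 0.261, limma adjusted p = 0.173). Enpp2 read 10.19, 10.66 and 9.40 at 2500 ppm, and its difference was 0.53 without 2500 ppm replicate 2. Without 2500 ppm replicate 3 it was 1.17 (limma adjusted p = 0.042), and Enpp2 passed in 1 of 19 alternatives. Their list had a median of 0.13 at 2500 ppm and 0.03 at 750 ppm, and of 0.07 and -0.09 without control replicate 3. Hr, a receptor corepressor and direct hormone target, was at 0.18 (limma adjusted p = 0.527) at 2500 ppm, and at 0.066 without control replicate 3. Of 6 measured genes listed as lowered by the hormone, 0 passed in limma and 3 were higher at an unadjusted p under 0.05 at 2500 ppm, where 8.56% of all genes were. Col6a1 was 0.41 above control at 2500 ppm (SE 0.0789, limma adjusted p = 0.0577) and 0.54 above at 750 ppm (SE 0.0789, limma adjusted p = 0.201). Col6a2 was 0.46 and 0.52 above, and both are collagen genes that meningeal fibroblasts also express. Genes on the raised and the lowered list had medians above 0 at 2500 ppm against control, 0.13 and 0.24, with 0.02 over all genes. Between 2500 and 750 ppm, 13 of the 14 raised genes were above 0 (median 0.21). The 1 below 0, Bdnf, was at -0.78 (SE 0.145, limma adjusted p = 0.0675), with all 2500 ppm arrays under all 750 ppm arrays. Bdnf was also the 1 raised gene lower at an unadjusted p under 0.05 at 2500 ppm against control (-0.43, limma adjusted p = 0.192). Of the 6 lowered genes 1 was above 0 between 2500 and 750 ppm (median -0.03), and of all 11606 genes 5493 were.

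**Figure D4:**
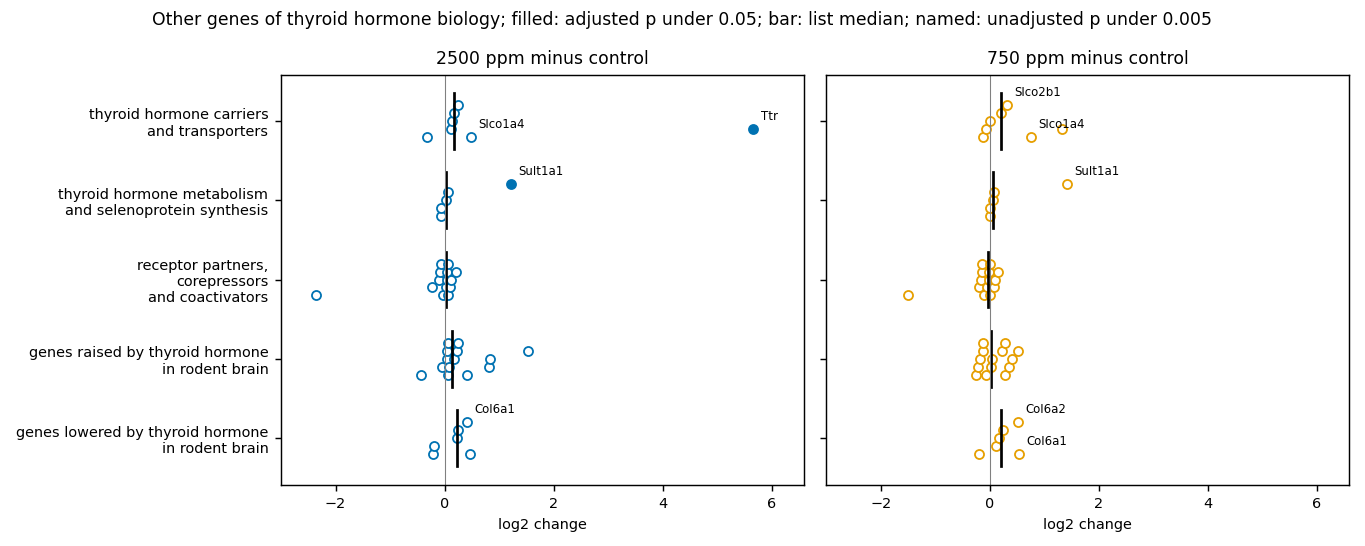
Log2 change of the other genes of thyroid hormone biology (horizontal axis) in 5 lists at 2500 ppm and at 750 ppm against control, 1 point per gene, with a bar at the list median and filled points at an adjusted p under 0.05. Ttr at 5.67 and Sult1a1 at 1.22, both at 2500 ppm, are the 2 filled points, and the list medians lie between -0.03 and 0.24.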

How the data were processed

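Cortical RNA from 9 pups was hybridised to 1 array each, and groups were taken from the labels. The deposited values are log2 intensities made by the authors with the affy package and RMA (background correction, quantile normalization, 1 value per probe set), per the submitters' processing notes, which name no versions. Quantile normalization hides a change in total RNA per cell, RMA compresses differences near background, and the number of arrays limits the precision.

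After setting aside 57 AFFX controls and the 9313 dimmest probe sets, 21729 were fitted in limma 3.58.1 (R 4.3.3) with 1 mean per group over all 9 arrays and empirical Bayes variances. Tests were two-sided, with Benjamini-Hochberg adjustment within each comparison and a threshold of 0.05. A second fit took concentration as a number. An exact permutation test of 3 against 3 cannot go below 0.1, so none was used. The model was tested on simulated data. Symbols came from the platform annotation, updated by Entrez identifier to GRCr8, and positions are those of genes. The members and lists were chosen with earlier results of these data known. Every member probe set is described. In each list, genes that passed and the 2 of smallest p at 2500 ppm are named, and Crym, Hr, Eefsec, Dio1, Col6a2 and Bdnf were named after their values were seen. Marker lists give the mean of centred log2 values. Same-numbered replicates were not shown to be pairs, since the correlations of their deviations from the group means ran from -0.21 to 0.31.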

Additional observations from a re-analysis of the deposited data

How the results depend on the processing

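The count of member probe sets past the threshold at 2500 ppm against control, 0, was 1 (Itih3) after median-centring, after a second quantile normalization or with an intensity trend in the prior variance. It was 2 when only the groups compared were fitted, 2 without both control replicate 3 and 750 ppm replicate 3, 4 at an adjusted p under 0.1 and 6 with array weights, and ran from 0 to 2 when 1 array was left out, the 2 being reached without 750 ppm replicate 2 (Itih3 and Camk4 1369753_at) and without 750 ppm replicate 3 (Itih3 and Nrgn). At 750 ppm it was 2 with array weights, both of Thrb, and 0 each time 1 array was left out. Between 2500 and 750 ppm it was 1 with the trend (Nrgn), 3 with array weights, 2 without both arrays that stand apart, 1 at an adjusted p under 0.1, and 0 to 1 with 1 array left out (Itih3 without 750 ppm replicate 3). The replicate number as a block gave 0 member calls in all 3 comparisons, with 122, 2 and 36 probe sets called over the array in place of 149, 2 and 70. The other filters on dim probe sets and 1 probe set per gene also gave 0. Totals over the whole array are given only for the block and, at 2500 ppm against control, for array weights. A setting can change those totals too, as array weights did, so a higher member count is no result about the members. Why array weights gave more calls was not tested.

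The values that changed direction were as follows, none of them past the threshold. With array weights, Dio2 was 0.011 at 2500 ppm and -0.029 at 750 ppm against control and 0.039 between them, Klf9 was -0.049 and -0.058 at 2500 ppm, and Camk4 1369752_a_at 0.073 at 750 ppm. Median-centring gave -0.028 (750 ppm) and 0.027 (2500 against 750 ppm) for Dio2, and the second quantile normalization -0.028 for Thrb 1370474_at between the doses. Without both arrays that stand apart, Dio2 was 0.049, -0.079 and 0.128 in the 3 comparisons, and at 750 ppm Nrgn was 0.021 and Camk4 1369752_a_at 0.060. With 1 array left out, Dio2 ran from -0.070 to 0.049 at 2500 ppm, -0.149 to 0.127 at 750 ppm and -0.149 to 0.128 between them, Thra 1367726_at from -0.015 to 0.045 at 2500 ppm, and Camk4 at 750 ppm from -0.090 to 0.048 and from -0.291 to 0.0044. Between the doses Thra 1370691_a_at ran from -0.020 to 0.114, Thrb 1370474_at from -0.231 to 0.172 and Thrb 1394456_at from -0.0009 to 0.180. The cause of these turns was not tested.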
